A study of Rattus norvegicus with 3 samples.

Results

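Genes that handle heme and iron were followed in oral soft tissue from around an implant, from a healed extraction site and from around a natural tooth. The list of 10 holds Hmox1, Blvrb, Fth1, Ftl1, Slc40a1, Tfrc, Slc11a1, Slc11a2, Cp and Hpx, taken by gene symbol with all their probe sets, the small groups of probes that the array reads together. On the array, 7 of the 10 had 13 probe sets of their own, among 14217 genes measured in all. Fth1 and Ftl1, the other 2, had only a probe set shared with pseudogenes or related genes, so those values belong to no single gene. No probe set carried the symbol or gene ID of Slc11a1, the divalent metal pump of the phagosome, and it was not analysed here.

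All tissue came from wild-type male Sprague Dawley rats that were 9 weeks old at harvest, with 1 array per tissue. PICT is peri-implant connective tissue, taken 4 weeks after an upper first molar was pulled at 5 weeks of age and a titanium alloy implant was set into the socket at once. OMCT is oral mucosal connective tissue from a socket that had the same extraction at the same age and 4 weeks of healing, with no implant. PCT is periodontal connective tissue around an upper first molar that was left in place, without surgery. The sections were cut by laser microdissection. The sources used here give no number of animals per array, and the design text once calls the PCT animals mice, where the labels have rat.

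Heme, the iron-bearing ring of haemoglobin, is opened by heme oxygenase into iron, carbon monoxide and biliverdin, which biliverdin reductases then reduce. The iron set free is stored in ferritin, a shell of heavy (Fth1) and light (Ftl1) chains, or leaves the cell through ferroportin (Slc40a1). Iron enters most cells on transferrin through the transferrin receptor (Tfrc) and crosses the endosome membrane through the transporter DMT1 (Slc11a2). Macrophages that take up old red cells run this path at a high rate, and tissue that has bled or is inflamed is known for it too.

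Each array's median intensity was 56.5 in PICT, 57.4 in OMCT and 34.3 in PCT. Differences are therefore given as relative log2 differences: log2(intensity + 8.56) minus the median of that array, tissue minus tissue. This removes a shift of 0.60 between PICT and PCT, 0.62 between OMCT and PCT and -0.02 between PICT and OMCT, and it understates the fold of dim genes. For genes well below 8.56 on both arrays, the subtracted shift is most of the relative difference from PCT. With 1 array per tissue there is no replicate error and no test. The only spread in the data is that between probe sets of 1 gene, whose differences had a technical SD of 0.49 in each of the 3 comparisons. A gene was counted as past 2-fold when its relative log2 difference was at least 1 and the brighter array lay at or above its own median probe set. Where a gene had several probe sets, the brightest one stood for it. Collagen genes were bright on all arrays, with Col1a1 at 5552 in PICT, 8189 in OMCT and 6651 in PCT, and so were the epithelial keratins, with Krt5 at 7965, 8595 and 9565, so the RNA did not come from connective tissue alone. In such mixed sections, fewer cells of a type and less RNA per cell cannot be told apart.

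Hmox1, Tfrc and Slc40a1 stood out. Hmox1, the enzyme that opens heme, was highest around the implant, above both other tissues. Tfrc, the receptor for iron uptake, was also highest around the implant. Slc40a1, the iron exporter, was highest at the healed extraction site and was at similar relative levels in the other two tissues. The remaining measured members, Blvrb, Slc11a2, Cp and Hpx, did not pass 2-fold in any comparison by the probe set that stood for them, although 1 further probe set of Cp did.

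By the 2-fold rule, 1 of the 7 measured members was past 2-fold in PICT against PCT, and that was Hmox1, which was higher. The background was 7.35% of all genes past 2-fold, 3.98% higher and 3.37% lower. In PICT against OMCT, 3 of 7 were past 2-fold: Hmox1 and Tfrc higher and Slc40a1 lower. There the background was 8.61% of all genes, 4.15% higher and 4.46% lower. In OMCT against PCT, 1 of 7, Slc40a1, was past 2-fold and higher, beside 10.5% of all genes, 5.66% higher and 4.81% lower. The median relative difference over the 7 members was 0.18, -0.02 and -0.03 in these comparisons in turn, against -0.13, -0.04 and -0.08 over all genes. The list as a whole thus lay near the middle of all genes, and Hmox1, Tfrc and Slc40a1 did not share 1 direction. Without centring, as deposited, 2, 3 and 2 members were past 2-fold, where 15.0%, 8.62% and 19.7% of all genes were. The comparisons share arrays, so their counts are not independent.

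**Figure D1:**
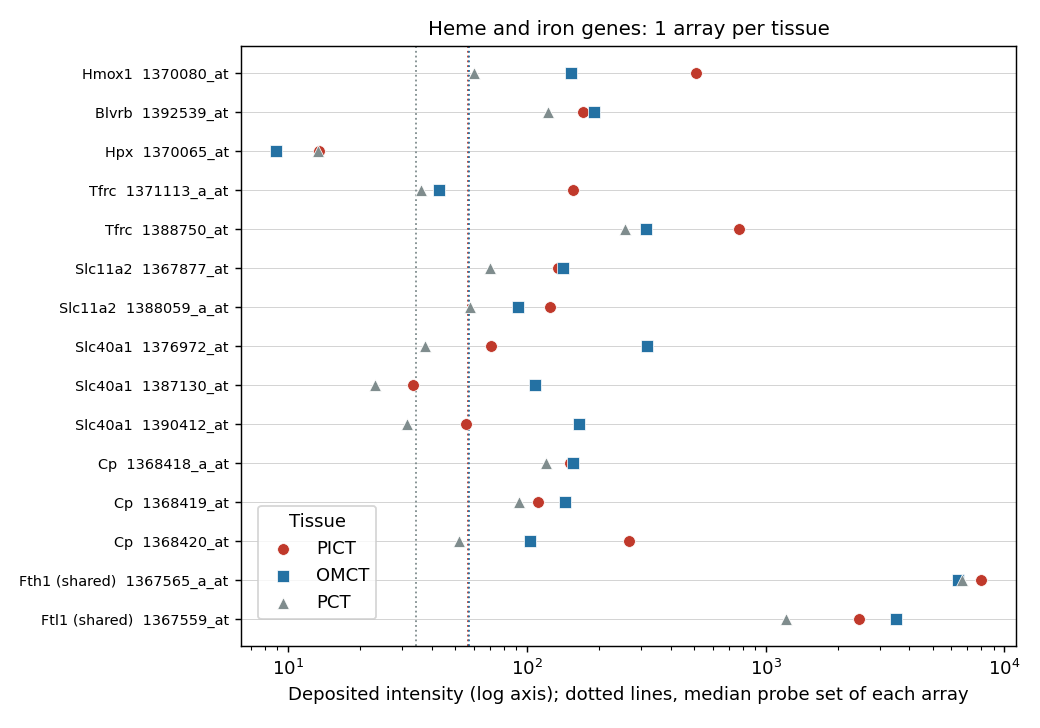
Deposited intensity (x axis, log scale) of every probe set of the measured heme and iron genes, 1 point per tissue, with PICT as circles, OMCT as squares and PCT as triangles. Dotted vertical lines mark the median probe set of each array, 56.5 in PICT, 57.4 in OMCT and 34.3 in PCT. PICT is brightest for Hmox1 and both Tfrc probe sets, and OMCT for all 3 Slc40a1 probe sets; the shared probe sets at the bottom belong to no single gene.

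The widest difference from PCT among the members in PICT was that of Hmox1. It (probe set 1370080_at) had an intensity of 510 in PICT, 154 in OMCT and 60.1 in PCT. The PICT value lay at percentile 91.8 of its array, the OMCT value at 71.8 and the PCT value at 62.0, so the signal was above the median probe set everywhere. The relative log2 difference was 2.31 in PICT minus PCT, 1.70 in PICT minus OMCT and 0.62 in OMCT minus PCT. These are 4.70, 3.47 and 1.26 times the technical SD, which holds no variation between animals or sections. Ranked among 14217 genes, Hmox1 held place 100 from the top in PICT minus PCT and place 249 in PICT minus OMCT. A single probe set reads this gene, so no second one checks it.

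Blvrb encodes biliverdin reductase B, which acts downstream of heme oxygenase on biliverdin and flavins. Its probe set 1392539_at had an intensity of 172 in PICT, 190 in OMCT and 123 in PCT. The relative differences were -0.15 in PICT minus PCT, -0.12 in PICT minus OMCT and -0.03 in OMCT minus PCT, all smaller than the technical SD. The order of the 3 tissues for Blvrb therefore cannot be drawn from these arrays.

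Hpx encodes hemopexin, the plasma protein that binds free heme and carries it to the liver. Its probe set 1370065_at was dim, at 13.4 in PICT, 8.94 in OMCT and 13.4 in PCT, below the median probe set of each array. Those values lie at percentiles 23.9, 18.0 and 31.9. Its relative differences of -0.60, 0.35 and -0.95 (PICT minus PCT, PICT minus OMCT and OMCT minus PCT) thus rest on signals near the bottom of the range and were not counted.

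Iron uptake was read by Tfrc and Slc11a2. The brighter Tfrc probe set, 1388750_at, had 777 in PICT, 315 in OMCT and 258 in PCT. The second, 1371113_a_at, had 156 in PICT, 42.7 in OMCT and 36.1 in PCT. Both thus put PICT above the other tissues and OMCT close to PCT. The relative differences were 0.96 and 1.28 in PICT minus PCT and 1.30 and 1.70 in PICT minus OMCT, brighter probe set first. Against PCT the brighter probe set fell just short of the 2-fold rule and the second lay past it. OMCT minus PCT gave -0.35 and -0.42, within the technical SD. In PICT minus OMCT, Tfrc held place 454 from the top of all genes, and in PICT minus PCT place 720.

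Slc11a2 carries ferrous iron out of the endosome and into the gut lining. Probe set 1367877_at had 135 in PICT, 142 in OMCT and 69.8 in PCT, and 1388059_a_at had 124 in PICT, 92.2 in OMCT and 57.7 in PCT. Relative to the array medians the differences ran from -0.05 to 0.42 over both probe sets and the 3 comparisons, none beyond the technical SD. The lower PCT intensities of Slc11a2 are thus of the size by which the whole PCT array was dimmer.

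Slc40a1, ferroportin, is the iron exporter of animal cells and is abundant in macrophages that recycle iron. Its brightest probe set, 1376972_at, had 71.0 in PICT, 318 in OMCT and 37.6 in PCT. The others gave the same order, with 1390412_at at 55.5 in PICT, 165 in OMCT and 31.6 in PCT, and 1387130_at at 33.2, 108 and 23.1. In PICT minus OMCT the relative differences were -2.02, -1.42 and -1.46 for these 3 probe sets. In OMCT minus PCT they were 2.20, 1.49 and 1.25, and in PICT minus PCT only 0.18, 0.07 and -0.20. The differences of OMCT from the other tissues were 2.57 to 4.51 times the technical SD, and those between PICT and PCT were within it. Among all genes Slc40a1 held place 136 from the top in OMCT minus PCT and place 107 from the bottom in PICT minus OMCT.

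Cp encodes ceruloplasmin, the copper ferroxidase that oxidises iron leaving through ferroportin so that transferrin can bind it. It is made in a secreted and a membrane-anchored form, and the annotation used here does not say which form a probe set reads. The 3 probe sets disagreed. Probe set 1368418_a_at had 151 in PICT, 156 in OMCT and 120 in PCT, and 1368419_at had 111, 145 and 93.0. For these, no relative difference in any comparison exceeded 0.37 in size. Probe set 1368420_at had 269 in PICT, 103 in OMCT and 51.8 in PCT, with relative differences of 1.60 in PICT minus PCT, 1.34 in PICT minus OMCT and 0.26 in OMCT minus PCT. By that probe set alone, Cp shared the order of Hmox1, with PICT highest. As the brightest on average, 1368418_a_at stood for the gene, so Cp was counted as neither higher nor lower.

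The ferritin signals were among the brightest on the arrays. Probe set 1367565_a_at, annotated to Fth1 together with its pseudogene Fth1-ps5, had 7971 in PICT, 6366 in OMCT and 6662 in PCT, above percentile 99 of each array. At relative differences of -0.34 in PICT minus PCT, 0.34 in PICT minus OMCT and -0.69 in OMCT minus PCT it stayed under 2-fold. Probe set 1367559_at, annotated to Ftl1 with pseudogenes and close copies, had 2462 in PICT, 3510 in OMCT and 1213 in PCT. Its relative differences were 0.41, -0.49 and 0.90 in the same comparisons, also under 2-fold. After centring, the heavy-chain and light-chain signals had opposite signs in each comparison, but in PICT minus PCT both lay within the technical SD of 0.49. Without centring, PICT minus PCT was 0.26 for the heavy chain and 1.02 for the light chain, the same sign. The light-chain signal was then also past 2-fold in OMCT minus PCT, at 1.53. Signals this bright lie where arrays compress differences, and both values may hold transcripts of several loci.

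**Figure D2:**
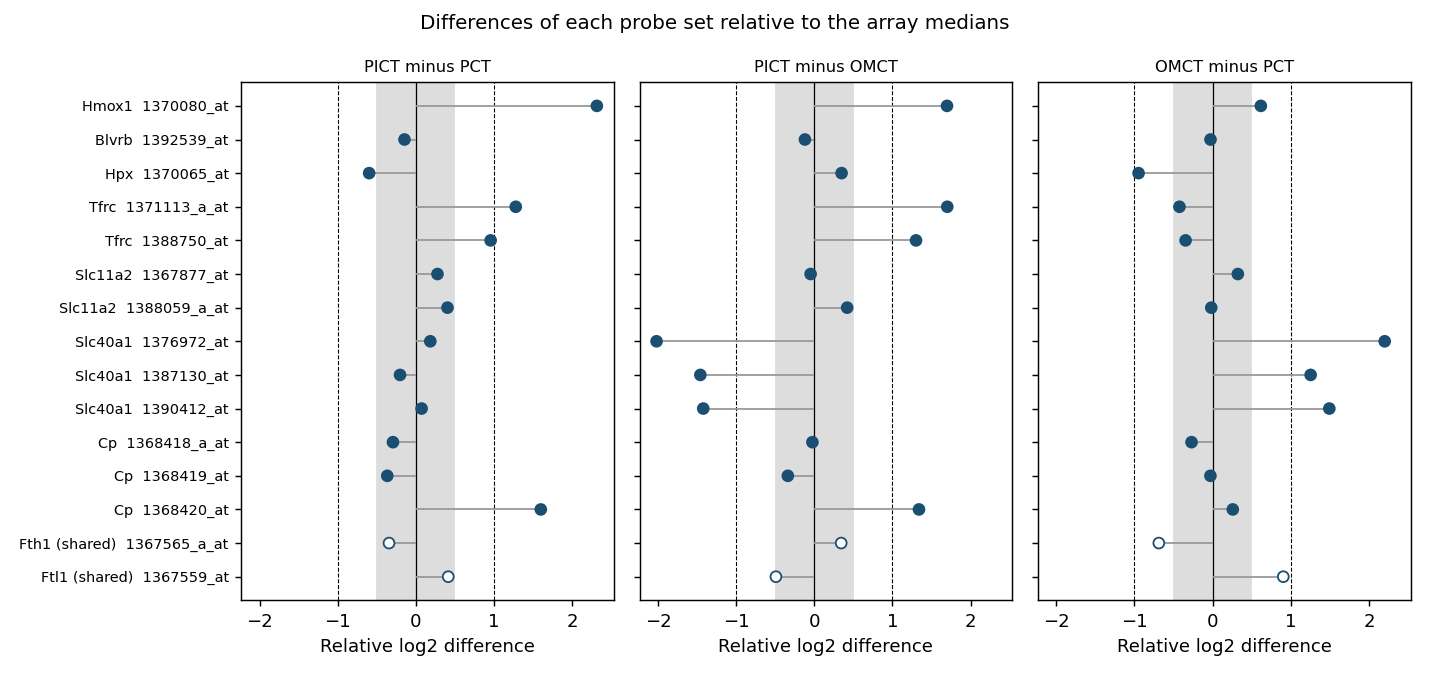
Relative log2 difference (x axis) of each probe set in PICT minus PCT, PICT minus OMCT and OMCT minus PCT, after each array's median was subtracted. Grey bands are 1 technical SD (0.49) either side of 0, dashed lines mark 2-fold, and open circles are probe sets shared with other loci. Both Tfrc probe sets lie right of the band in the first and second panels, all 3 Slc40a1 probe sets lie left of the 2-fold line in the second and right of it in the third, and 1 of 3 Cp probe sets departs from the others.

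Tfrc and Slc40a1 run the import and the export of iron, and PICT against OMCT set them in opposite directions. The 250 bases before the start of each gene are shown for this pair, from RefSeq on build GRCr8, 5′ to 3′ in the direction of the gene. The Tfrc sequence lies at chr11:81690319-81690568 and the Slc40a1 sequence at chr9:55543461-55543710, both on the minus strand. Capitals mark ACGTG, the core letters of a hypoxia response element.
Tfrc: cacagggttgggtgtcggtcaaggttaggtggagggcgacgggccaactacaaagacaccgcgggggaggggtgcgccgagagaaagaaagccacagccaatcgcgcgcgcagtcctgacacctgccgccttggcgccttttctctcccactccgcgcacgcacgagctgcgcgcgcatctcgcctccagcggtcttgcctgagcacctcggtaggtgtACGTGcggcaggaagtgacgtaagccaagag
Slc40a1: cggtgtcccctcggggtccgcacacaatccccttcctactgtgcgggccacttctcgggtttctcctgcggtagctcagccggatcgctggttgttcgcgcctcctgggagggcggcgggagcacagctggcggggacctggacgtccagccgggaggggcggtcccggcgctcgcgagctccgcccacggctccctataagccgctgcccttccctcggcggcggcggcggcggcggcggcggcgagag

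ACGTG on either strand was found 1 time in the Tfrc window, beginning 31 bases before the start, and was not found in the Slc40a1 window. Of 33469 RefSeq promoter windows of this length, 16.6% hold these letters. TGACNNNGC, the core of the antioxidant response element, stands in 10.1% of windows, and TGAGTCA, an AP-1 site, in 4.05%, and neither was in the window of Tfrc or of Slc40a1. Promoter entries were matched for 6 of the 7 measured members, without Hmox1. Among the other matched members, Hpx held TGACNNNGC 1 time, 99 bases before its start. Such matches describe letters in these windows, not sites in use.

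Other genes of the pathway were taken from lists chosen by function, and most did not move past 2-fold, as most of all genes did not. The share of all genes past 2-fold was 7.35% in PICT against PCT, 3.98% higher and 3.37% lower. It was 8.61% in PICT against OMCT, 4.15% higher and 4.46% lower, and 10.5% in OMCT against PCT, 5.66% higher and 4.81% lower. These shares stand beside every list count below, cell type lists included. Heme synthesis had 11 measured genes, with 0 higher and 1 lower in PICT against PCT, 1 higher and 0 lower in PICT against OMCT, and 0 higher and 2 lower in OMCT against PCT. Alas1, the first and rate-limiting enzyme of heme synthesis in most cells, had 729 in PICT, 301 in OMCT and 474 in PCT. It was lowest at the healed site, with relative differences of 1.27 in PICT minus OMCT and -1.26 in OMCT minus PCT and 0.01 between PICT and PCT. Alas2, its red cell form, was dim in the surgical tissues, at 10.05 in PICT and 3.94 in OMCT, against 35.3 in PCT.

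Heme breakdown and heme transport had 11 measured genes, of which 1 was higher in PICT against PCT, 0 were past 2-fold between PICT and OMCT, and 1 was higher and 1 lower in OMCT against PCT. Past 2-fold among all genes were 7.35%, 8.61% and 10.5% in these comparisons in turn. Hmox2, the constitutive heme oxygenase, did not share the pattern of Hmox1: it had 143 in PICT, 247 in OMCT and 140 in PCT, with relative differences of -0.58 in PICT minus PCT and -0.74 in PICT minus OMCT. Blvra, the main biliverdin reductase of adult tissue, differed by -0.62 and -0.75 in the same comparisons. Slc48a1, which moves heme out of the phagolysosome, had 603 in PICT, 893 in OMCT and 300.0 in PCT, with relative differences of 0.38, -0.54 and 0.92 in PICT minus PCT, PICT minus OMCT and OMCT minus PCT. Cd163, the macrophage receptor for haemoglobin bound to haptoglobin, was below the median probe set on all arrays, at 16.0, 21.1 and 12.7 in PICT, OMCT and PCT. Haptoglobin itself, Hp, was also below the array median, at 48.7 in PICT, 16.5 in OMCT and 18.3 in PCT. The genes past 2-fold were Lrp1, an endocytic receptor that takes up hemopexin with its heme, and Abcc1, an organic anion exporter. Lrp1 differed by 1.16 in PICT minus PCT and 1.73 in OMCT minus PCT, where a second, dimmer probe set gave -0.27 and 1.07. Abcc1 differed by -1.04 in OMCT minus PCT.

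Among 19 measured partners of iron uptake, storage, reduction and export, 1 was higher and 0 lower in PICT against PCT, 0 were past 2-fold between PICT and OMCT, and 3 were higher and 0 lower in OMCT than in PCT. Past 2-fold among all genes were 7.35%, 8.61% and 10.5% in turn. Slc39a8, a zinc transporter that also carries iron and manganese, had 277 in PICT, 285 in OMCT and 30.6 in PCT, a relative difference of 2.26 in PICT minus PCT and 2.29 in OMCT minus PCT. Slc39a14, its close relative that takes up iron not bound to transferrin, had 189 in PICT, 359 in OMCT and 62.8 in PCT. Its difference of 1.74 in OMCT minus PCT was past 2-fold and its 0.87 in PICT minus PCT was not. Steap1, of the family of endosomal metal reductases, differed by 1.37 in OMCT minus PCT. Heph, the membrane ferroxidase hephaestin, had 202 in PICT, 346 in OMCT and 224 in PCT and was past 2-fold in no comparison. Slc39a8 and Slc39a14 were thus dimmest around the tooth.

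Regulators of iron balance had 17 measured genes, with 0 higher and 3 lower in PICT against PCT, 0 and 0 in PICT against OMCT, and 0 higher and 1 lower in OMCT against PCT. Of all genes, 3.37%, 4.46% and 4.81% were lower in these comparisons in turn. The lower genes in PICT were Bmp2 at -1.53, a ligand that drives hepcidin in the liver, its receptor Bmpr2 at -1.09 and the BMP target Id1 at -1.06. Without centring they were at -0.92, -0.49 and -0.46, short of 2-fold. Id1 was also the lower gene in OMCT minus PCT, at -1.35. Hamp, which encodes hepcidin, the liver hormone that removes ferroportin from the membrane, was dim, at 5.96 in PICT, 28.8 in OMCT and 2.68 in PCT. The iron-sensing RNA binding proteins Aco1 and Ireb2 stayed under 2-fold in all comparisons, with Aco1 at -0.51 and Ireb2 at 0.17 in PICT minus PCT. Of 8 regulators of Hmox1, 1 was past 2-fold. That was Nr1d1, a heme-binding repressor of the circadian clock, at 18.8 in PICT, 141 in OMCT and 43.1 in PCT, with -1.52 in PICT minus PCT and -2.43 in PICT minus OMCT. Nfe2l2 (NRF2, an activator of Hmox1) and Bach1 (its heme-sensing repressor) each differed by 0.56 in PICT minus OMCT, and by 0.25 and 0.27 in PICT minus PCT.

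**Figure D3:**
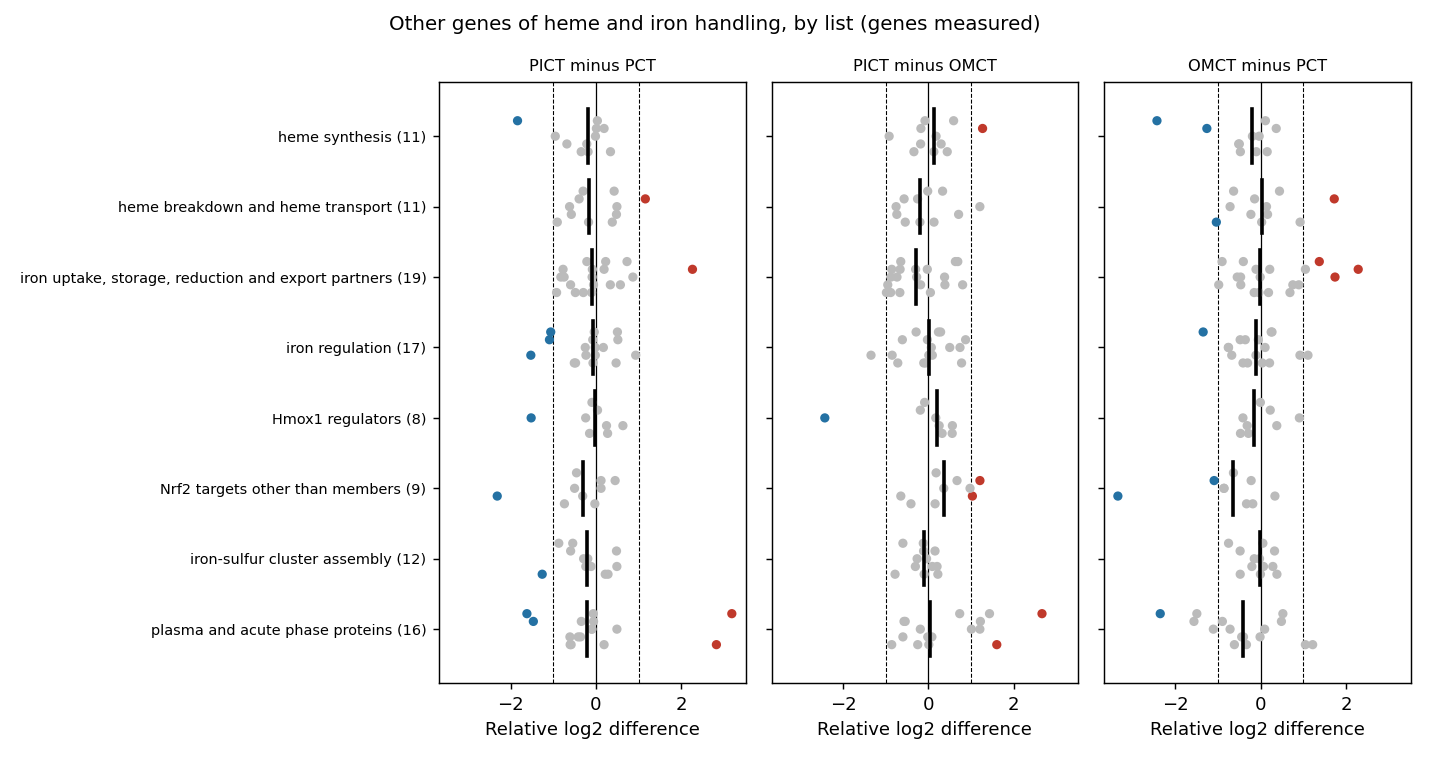
Relative log2 difference (x axis) of each measured gene in 8 lists of heme and iron handling and related functions, for PICT minus PCT, PICT minus OMCT and OMCT minus PCT. Red points are past 2-fold higher and blue points past 2-fold lower in the tissue named first, grey points are neither, including dim genes beyond the dashed 2-fold lines, and black bars are list medians. Most genes lie between the 2-fold lines, as most of all genes do, and the list medians run from -0.64 to 0.36.

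Marker genes of other cells moved alongside these results. Of 19 measured macrophage and monocyte markers, 13 were higher and 0 lower in PICT against PCT, with a median relative difference of 2.35. Between PICT and OMCT, 0 were higher and 4 lower, with a median of -0.31, while Hmox1 and Tfrc were higher in PICT. The summed intensity of these markers was 16319 in PICT, 19003 in OMCT and 2202 in PCT, and none was listed at 0. This and the other marker sums add deposited intensities without centring, so they hold the dimmer scale of the PCT array. Neutrophil markers were higher in PICT for 4 of 8 genes against PCT and for 4 of 8 against OMCT, with sums of 4953 in PICT, 1217 in OMCT and 703 in PCT, none listed at 0. In OMCT against PCT 2 were higher and 2 lower, with a median of 0.02. S100a9, at 2794 in PICT, 720 in OMCT and 157 in PCT, gives the sum its order there, whereas S100a8 had 1376, 136 and 321 and Cxcr2 had 450, 141 and 189. The part of macrophages and neutrophils in the Hmox1 and Tfrc results was not tested.

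Red cell transcripts were read by few genes. Hbb, the beta chain of haemoglobin, had 415 in PICT, 129 in OMCT and 765 in PCT, and it made up most of the sum over 6 measured red cell markers, 452 in PICT, 205 in OMCT and 878 in PCT, none listed at 0. By deposited intensity, Alas2 and Ahsp were also highest in PCT, Slc4a1 and Rhag were highest in PICT and Epb42 in OMCT, mostly at dim signals. After centring, Slc4a1 and Rhag were at -0.41 and -0.58 in PICT minus PCT, against 0.19 and 0.02 without centring. Both genes lay below the constant added before the log on all arrays, so the subtracted shift of 0.60 sets these negative signs. Slc4a1 and Rhag are not read as higher in PCT. The part of red cells in these results was not tested. The liver markers were dim, with 8 genes summing to 99.5 in PICT, 104 in OMCT and 104 in PCT, none listed at 0. Their median relative difference was -0.54 in PICT minus PCT and -0.51 in OMCT minus PCT. At such dim signals these values are close in size to the subtracted shifts of 0.60 and 0.62. They are not read as a lower liver signal.

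OMCT, where Slc40a1 was highest, also had the highest fibroblast sum, at 36913 in PICT, 58218 in OMCT and 25922 in PCT over 13 markers, none listed at 0. Of these, PICT had 0 higher and 5 lower against OMCT, and OMCT had 8 higher and 0 lower against PCT. In PICT against PCT 2 were higher and 2 lower, with a median relative difference of -0.08. Differentiated epithelium ran the other way: 12 of 13 markers were higher in PICT than in OMCT and 12 were lower in OMCT than in PCT, with sums of 33225 in PICT, 4430 in OMCT and 28118 in PCT. Basal keratinocyte markers did not share this, with sums of 26238 in PICT, 26568 in OMCT and 29530 in PCT. Of these 10, 1 was higher and 1 lower in PICT against OMCT, with a median of -0.04. None of the epithelial markers was listed at 0. Tfrc, at 1.30 in PICT minus OMCT, had the direction of the differentiated markers there. In PICT minus PCT, where Tfrc was at 0.96, the median of the differentiated markers was -0.26. The 4 macrophage markers that were lower in PICT against OMCT were Adgre1 at -1.33, C1qa at -1.96, C1qb at -2.54 and C1qc at -1.59, beside -2.02 for Slc40a1. The other 15 of the 19 macrophage markers were past 2-fold in neither direction there, and the list median was -0.31. In OMCT minus PCT these 4 were at 2.92, 2.86, 2.27 and 1.83, beside 2.20 for Slc40a1, and 17 of the 19 were higher. In PICT minus PCT the same 4 were at 1.59, 0.90, -0.27 and 0.24, beside 0.18 for Slc40a1. Of 11 endothelium markers, 0 were higher and 6 lower in PICT against OMCT, with a median of -1.19. In OMCT against PCT 0 were past 2-fold, with a median of 0.16. In PICT against PCT 0 were higher and 6 lower, with a median of -1.03. The part of macrophages, fibroblasts, endothelium and epithelium in the Slc40a1 and Tfrc results was not tested.

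**Figure D4:**
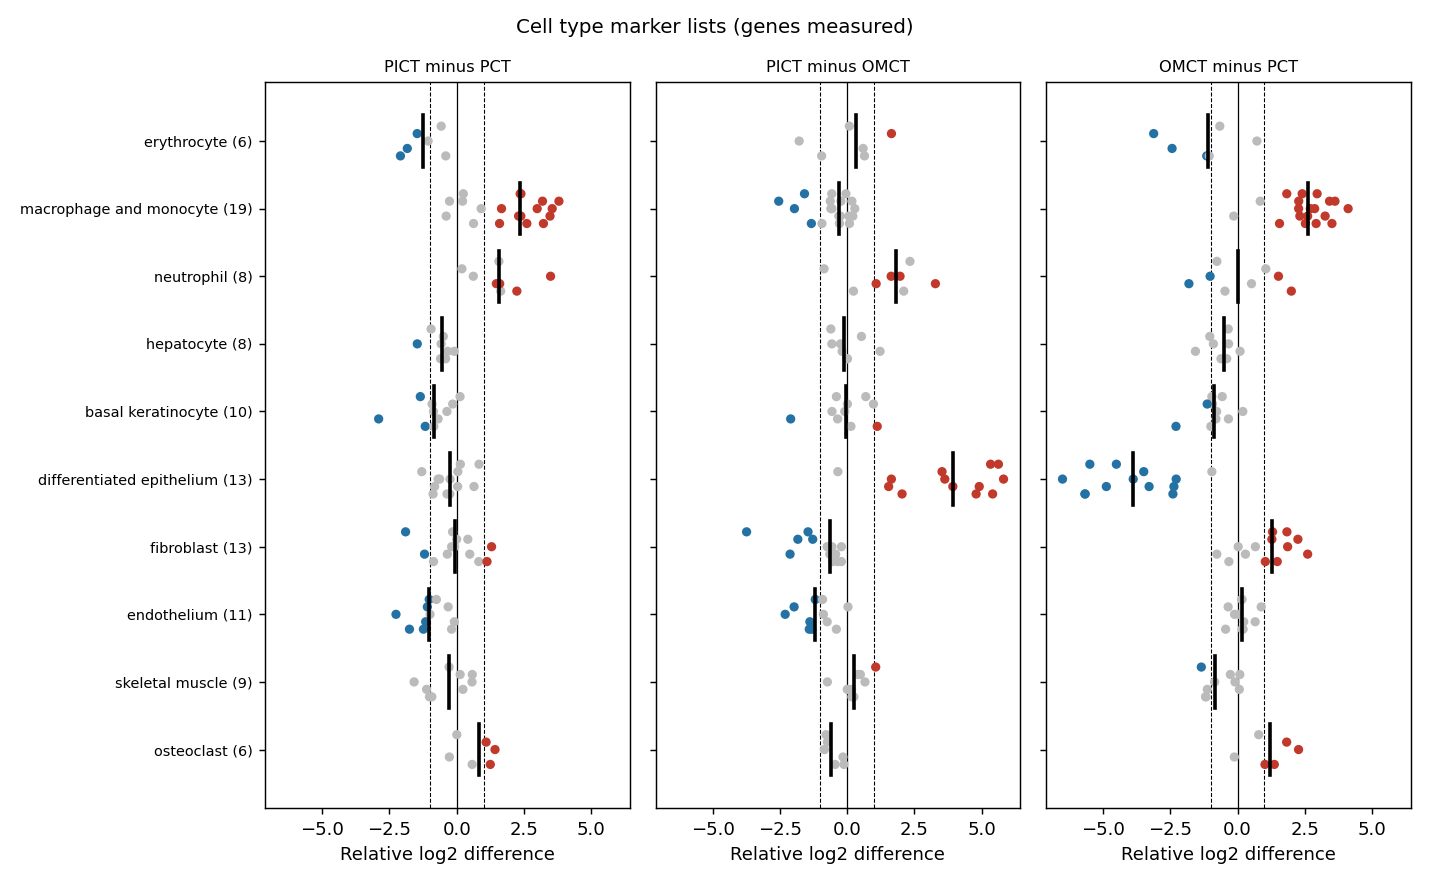
Relative log2 difference (x axis) of each measured gene in 10 cell type marker lists, for PICT minus PCT, PICT minus OMCT and OMCT minus PCT. Red points are past 2-fold higher and blue points past 2-fold lower in the tissue named first, grey points are neither, and black bars are list medians. Macrophage markers sit at a median of 2.35 in PICT minus PCT and -0.31 in PICT minus OMCT, and differentiated epithelium at 3.92 in PICT minus OMCT.

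The genes whose levels over the 3 arrays were most like those of Hmox1 and of Slc40a1 were found by the Euclidean distance between relative log2 values, each gene's mean removed, among 2372 genes past 2-fold in at least 1 comparison. With 3 arrays such likeness is a description alone. Nearest to Hmox1 were Mmp7 (matrilysin) at a distance of 0.02, Slc16a3 (the lactate exporter MCT4) at 0.04, Nlrc5 (an activator of MHC class I genes) at 0.04, Mx2 (an interferon-induced GTPase) at 0.05 and Ccrl2 (a chemerin-binding receptor) at 0.07. Slc16a3 had 773 in PICT, 246 in OMCT and 96.5 in PCT. Mmp7, Mx2 and Ccrl2 were dim in PCT, at 3.38, 6.38 and 3.78, below the constant added before the log. Nlrc5, at 13.5 in PCT, was not far above that constant. The small distances of these dim genes from Hmox1, which had 60.1 in PCT, therefore depend on the constant. Nearest to Slc40a1 were Pla2g2a (a secreted phospholipase) at 0.04, Aebp1 (a matrix protein of fibroblasts) at 0.04, Ahrr (the repressor of the aryl hydrocarbon receptor) at 0.10, Olfml3 at 0.11 and Srpx at 0.15. Pla2g2a had 507 in PICT, 2100 in OMCT and 301 in PCT.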

How the data were processed

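Per the labels' protocols, RNA was purified on columns, then amplified and labelled with biotin by a kit that primes at the 3' end, and read on a rat GeneChip. The authors deposited 1 linear intensity per probe set (31099 in all, from 0.0124 to 13104). The sources used here name neither the probe summary nor the scaling. The members and lists were chosen with earlier results of these data known. Gene names came from platform annotation of 2016: 20826 probe sets had 1 symbol, giving 14217 genes, 4525 with several probe sets, and all 7 measured members matched RefSeq gene IDs (GRCr8). The pseudocount of 8.56 is the 20th percentile of all values. The technical SD pools each probe set's departure from its gene's mean difference. Named were all members, genes of a pathway list past 2-fold in at least 1 comparison, fixed partners of members whatever their values, and the 5 genes nearest to Hmox1 and to Slc40a1; Aco1, Ireb2, Slc16a3 and the cell type markers were chosen after their values were seen. The call rule was run on simulated data, with changes wider than 2-fold put into bright genes and noise smaller than the technical SD. That run does not measure how often the rule errs on these arrays. Scaling, pseudocount, brightness filter and choice of probe set were varied. Python 3.11.15, pandas 2.3.3, numpy 2.4.6 and matplotlib 3.10.9 were used.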

Additional observations from a re-analysis of the deposited data

How the results depend on the processing

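Hmox1 higher in PICT than in OMCT and in PCT, Slc40a1 higher in OMCT than in PICT and in PCT, and Tfrc higher in PICT than in OMCT stayed past 2-fold under all 7 other settings of scaling, pseudocount and probe set, and with no filter on brightness. Hmox1 ranged over them from 2.02 to 2.92 in PICT minus PCT and from 1.48 to 1.75 in PICT minus OMCT. Tfrc ranged from 1.20 to 1.50 in PICT minus OMCT, and Slc40a1 from -2.12 to -1.60 in PICT minus OMCT and from 1.65 to 2.82 in OMCT minus PCT. Tfrc in PICT minus PCT, just short of the rule, ranged from 0.88 to 1.56. It passed as deposited, when centred on hybridisation controls, with the pseudocount at the median and as a mean over probe sets, and each of these settings counted 2 members in place of 1. As deposited, OMCT minus PCT also counted 2, with Hmox1 added at 1.24.

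Of 147 single-gene values under other settings, 131 moved by less than the technical SD, 16 by more, and no value past 2-fold changed sign. The shares of all genes past 2-fold (PICT minus PCT, PICT minus OMCT, OMCT minus PCT) were 7.35%, 8.61% and 10.5%, against 15.0%, 8.62% and 19.7% as deposited and 3.72%, 5.11% and 6.84% with the pseudocount at the median. With no brightness filter, PICT minus PCT had 11.3%. The part of these genes that was higher in PICT than in PCT was 54.2%, against 94.0% as deposited, 84.8% on hybridisation controls, 75.4% with the median pseudocount and 41.0% unfiltered. For OMCT minus PCT it was 54.1%, against 89.4%, 75.4%, 65.7% and 44.5% under these settings in turn. Among the pathway genes named as lower in PICT than in PCT, Bmp2, Bmpr2, Id1, Nr1d1, Bola3 and Apoa1 fell short of 2-fold as deposited. The deposited values do not say which scaling is right, so the brightness of PCT limits every comparison with it. No paired analysis was possible because each tissue has 1 array.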

Other observations

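Of 9 measured targets of NRF2 other than the members, PICT had 0 higher and 1 lower against PCT, where 3.98% of all genes were higher and 3.37% lower, with a median relative log2 difference of -0.31. Against OMCT it had 2 higher and 0 lower, where 4.15% of all genes were higher and 4.46% lower, with a median of 0.36. The lower gene was Slc7a11, the cystine importer that feeds glutathione synthesis, at 401 in PICT, 194 in OMCT and 1333 in PCT, with relative log2 differences of -2.31 in PICT minus PCT and -3.35 in OMCT minus PCT. It also was higher in PICT than in OMCT, at 1.03, as was Me1 (malic enzyme) at 1.21. Among genes of iron-sulfur cluster assembly, which spends iron in the mitochondrion, 1 of 12 was past 2-fold in PICT against PCT, Bola3 at -1.26, near the 7.35% of all genes. In the other comparisons 0 were, beside 8.61% and 10.5% of all genes.

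Of 16 plasma and acute phase genes, PICT had 2 higher and 2 lower against PCT, where 3.98% of all genes were higher and 3.37% lower. Against OMCT it had 2 higher and 0 lower, where 4.15% of all genes were higher and 4.46% lower. In OMCT against PCT 0 were higher and 1 lower, where 5.66% of all genes were higher and 4.81% lower. Lbp, which carries lipopolysaccharide, had the widest differences, 3.19 in PICT minus PCT and 2.67 in PICT minus OMCT. A2m (alpha-2-macroglobulin, a broad protease inhibitor that rises in rat inflammation) had 181 in PICT, 54.6 in OMCT and 9.05 in PCT. Its relative differences were 2.82 in PICT minus PCT and 1.61 in PICT minus OMCT. The lower genes in PICT minus PCT were C3, the central complement protein, at -1.62 and Apoa1, the main protein of high-density lipoprotein, at -1.47, and C3 was also lower in OMCT minus PCT, at -2.35.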
